A study of Mus musculus with 9 samples.

Results

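A set of 8 genes of cytokine signalling in mouse liver are described here, taken from the table by gene symbol: the interleukin-6 (IL-6) receptor genes Il6ra and Il6st, the transcription factor gene Stat3, its feedback inhibitor gene Socs3, the C/EBP transcription factor genes Cebpb and Cebpd, the interleukin-1 (IL-1) receptor gene Il1r1 and the IL-1 receptor antagonist gene Il1rn. All 8 were among the 55253 gene symbols of the table and all 8 passed the filter on low values. Liver RNA of 9 male C57Bl/6J mice was sequenced from the 3′ ends of transcripts. The WD+alcohol group, 5 mice, ate a Western diet and drank sweetened water containing 10% alcohol over 23 weeks, starting at an age of 10 weeks, and the control group, 4 mice, had chow and plain tap water. The labels name no allele or transgene in either group. Diet, alcohol and sweetening came together, so what is compared is their joint effect.

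IL-6 binds its receptor, encoded by Il6ra, and the complex engages gp130, the signalling chain that Il6st encodes and that the other cytokines of the IL-6 family share. JAK kinases on gp130 then phosphorylate STAT3, which enters the nucleus and switches on target genes, among them Socs3, whose product blocks gp130 and so limits the signal. IL-1 acts through the receptor encoded by Il1r1 and activates NF-kB, while the IL-1 receptor antagonist, encoded by Il1rn, occupies that receptor without signalling. In hepatocytes, STAT3, NF-kB and C/EBP-beta and C/EBP-delta act on the genes of acute phase plasma proteins such as serum amyloid A, and the antagonist itself is made by macrophages and, in the acute phase, by hepatocytes.

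Libraries held 3635860 to 6643645 reads in genes, and all values below are levels in CPM (read counts scaled to library size, with the authors' TMM adjustment) unless called a log2 fold change. Hepatocyte markers summed to 32856 to 48676 CPM in the WD+alcohol libraries and 51106 to 74008 CPM in the controls, and the albumin gene Alb alone stood at 14342 CPM or more in every library, as the liver label implies. WD+alcohol 1 had the fewest reads and lay furthest out on the first principal component of all genes.

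Of the 8 genes, 1 rose with Western diet plus alcohol and 0 fell at an adjusted p under 0.05 (limma-trend, Benjamini-Hochberg over all 14759 genes tested), where 1.61% of all tested genes were called higher and 0.678% lower. The gene that rose was Il1rn. At an unadjusted p under 0.05 the count was the same, 1 of 8, beside a similar share of all genes, 1798 of 14759. On the recovered reads, edgeR's quasi-likelihood test and DESeq2 each called 1 of the 8, beside 315 and 545 of all genes. Log2 fold changes of the other 7 genes lay between -0.17 (Il6ra) and 0.32 (Il1r1). The median over all 8 was 0.03, beside -0.0008 over all genes tested.

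**Figure D1:**
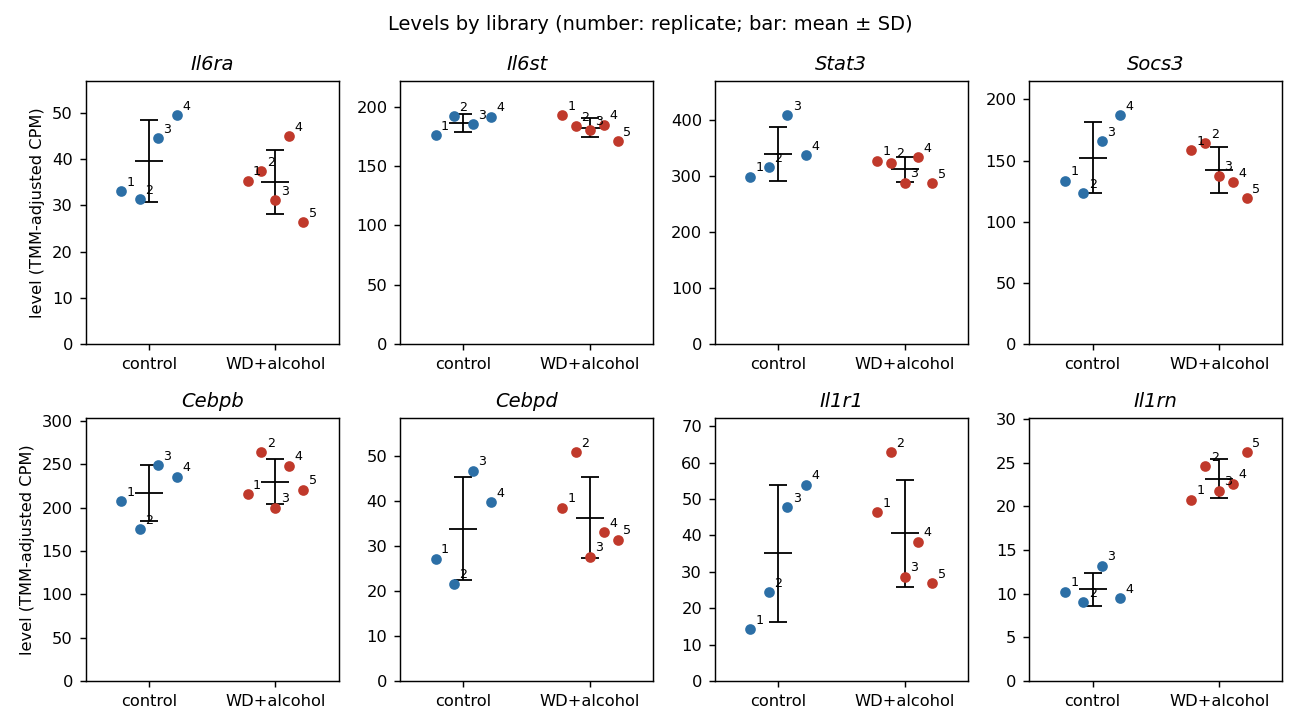
Level of each of the 8 genes (y axes, TMM-adjusted CPM, from 0) in the 4 control and 5 WD+alcohol libraries; each point is 1 library with its replicate number, and the black bars are the mean ± SD. Only for Il1rn are all WD+alcohol points (20.8 to 26.2 CPM) above all control points (9.03 to 13.2 CPM).

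**Figure D2:**
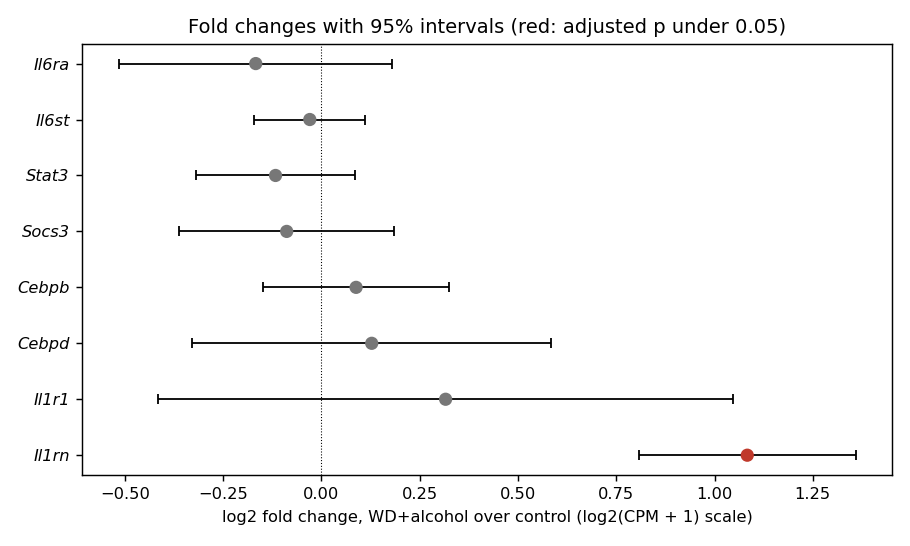
Log2 fold change of WD+alcohol over control (x axis, log2(CPM + 1) scale) with its 95% interval for each of the 8 genes; red marks an adjusted p under 0.05. The interval of Il1rn, 0.81 to 1.36, lies above 0, and that of Il6st, -0.17 to 0.11, is the narrowest.

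Il1rn stood at 20.8, 24.6, 21.8, 22.6 and 26.2 CPM in WD+alcohol 1 to 5 and at 10.2, 9.03, 13.2 and 9.47 CPM in controls 1 to 4. The groups did not overlap, which was so for 3.34% of all tested genes in this direction and 5.34% in either, and the highest control, control 3, stayed well below the lowest WD+alcohol library. Means were 23.2 ± 2.21 CPM (SD, n = 5) and 10.5 ± 1.88 CPM (SD, n = 4). The log2 fold change was 1.08 ± 0.13 (SE), a 2.12-fold difference with a 95% interval of 1.75 to 2.56 (limma-trend, adjusted p = 0.000455), and its p ranked 33 among the 14759. The antagonist gene was the least abundant of the 8, with 43 to 161 reads per library. A 3′ count does not tell its secreted form from its intracellular forms.

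RefSeq lists 3 start sites for Il1rn, and the windows from 250 bases before to 50 after the first and the third are shown because this is the gene that rose. Of the 8 genes, 7 were matched to such windows, 10 windows in all (RefSeq, build GRCm38.p6), while the values were made by the authors on GRCm39. Both strands were searched for TTCNNNGAA (STAT), TTGCNNAA (C/EBP) and GGG followed by NN and TTTCC (NF-kB), and capitals mark a match. The first window, at chr2:24336610-24336909 (plus strand), held none of the 3 motifs. The third, at chr2:24345121-24345420 (plus strand), held 1 NF-kB match, GGGTTTTTCC, from 51 to 42 bases before its start. The second window overlaps the third and holds that same match, from 29 to 38 bases after the second start.
Il1rn window 1: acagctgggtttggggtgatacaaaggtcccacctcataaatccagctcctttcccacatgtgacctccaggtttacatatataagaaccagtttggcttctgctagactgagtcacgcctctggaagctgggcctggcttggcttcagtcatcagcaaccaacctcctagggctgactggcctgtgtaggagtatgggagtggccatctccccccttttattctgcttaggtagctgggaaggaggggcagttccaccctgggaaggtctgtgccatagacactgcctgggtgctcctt
Il1rn window 3: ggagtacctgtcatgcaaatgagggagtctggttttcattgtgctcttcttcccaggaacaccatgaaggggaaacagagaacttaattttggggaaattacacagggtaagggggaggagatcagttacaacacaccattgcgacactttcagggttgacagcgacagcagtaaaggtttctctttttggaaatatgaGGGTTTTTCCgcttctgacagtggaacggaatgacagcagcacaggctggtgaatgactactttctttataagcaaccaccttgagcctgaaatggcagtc
The NF-kB letters occur in 1.63% of the 32851 windows in the RefSeq table, the STAT letters in 8.30% and the C/EBP letters in 10.8%. A match only describes the letters, and 3′ reads do not show which start site was used.

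Macrophage markers moved with the same groups as Il1rn. The summed level of 13 Kupffer cell and macrophage markers was 659 to 1084 CPM with Western diet plus alcohol and 219 to 360 CPM in controls, 11 of the 13 rose, and the one with the smallest p, Cd5l, had means of 155 ± 38.0 (SD, n = 5) and 26.0 ± 7.14 CPM (SD, n = 4). Per 1000 CPM of these markers, Il1rn amounted to 19.5 to 37.3 CPM in WD+alcohol libraries and 26.3 to 60.3 CPM in controls, so that the groups overlapped on this ratio. The 60.3 CPM was control 3, which had the highest Il1rn (13.2 CPM) but the lowest marker sum (219 CPM) of the controls. WD+alcohol 5 was highest of its group in both. WD+alcohol 2 had the lowest sum of its group (659 CPM) but the second highest Il1rn (24.6 CPM). WD+alcohol 1 had the lowest Il1rn of its group (20.8 CPM) at a sum of 1063 CPM. Summed neutrophil markers were 21.6 to 43.2 CPM against 9.87 to 23.7 CPM, with 0 of 3 tested markers called by limma-trend and the defining gene Ly6g below the filter. The neutrophil gene S100a9 (log2 fold change 0.70, limma-trend adjusted p = 0.0886) was called by DESeq2 (adjusted p = 0.0262) and without control 4 (0.0492). Stellate cell markers summed to 208 to 305 against 134 to 182 CPM (2 of 9 rose), and sinusoidal endothelial markers to 175 to 224 against 116 to 187 CPM (1 of 9 rose). The part of these cell types in the level of Il1rn was not tested, and in whole liver a change in cell number and a change in RNA per cell cannot be told apart.

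Genes most like Il1rn, by Pearson r of log2(CPM + 1) over the 9 libraries, were Lgmn (r = 0.98), which encodes the lysosomal protease legumain, and Pigp (r = 0.97), which encodes a subunit of the enzyme that starts glycosylphosphatidylinositol anchor synthesis. Lgmn averaged 32.4 ± 2.62 against 14.1 ± 0.81 CPM and also rose (limma-trend, adjusted p = 4.79e-05), and so did Pigp, at 16.4 ± 2.61 against 9.18 ± 1.10 CPM (adjusted p = 0.0085). Like Il1rn, both had no overlap between the groups, so r is set in large part by the difference between the groups. The nearest genes for the other 7 were Mon1a and Prpf18 for Il6ra, Eif1b and Taf8 for Il6st, Ints11 and Atp1b1 for Stat3, Tmem273 and Emsy for Socs3, Ube2g2 and Acbd3 for Cebpb, Zfp36 and Eya1 for Cebpd, and Tacc2 and Serpina3n for Il1r1. All of these r lay between 0.90 and 0.98, and with 10302 genes compared over 9 libraries every one of the 8 had neighbours that close.

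Il1r1, the receptor that the antagonist occupies, was the most variable of the 8. It stood at 46.4, 62.9, 28.7, 38.3 and 26.8 CPM in WD+alcohol 1 to 5 and at 14.2, 24.4, 47.8 and 54.0 CPM in controls 1 to 4. The groups overlapped widely: controls 3 and 4 exceeded 4 of the 5 WD+alcohol libraries, and control 1 was the lowest of all. The coefficient of variation was 36.3% and 53.9%, against 9.53% and 17.9% for Il1rn. Its log2 fold change of 0.32 (95% interval -0.41 to 1.05, a fold of 0.750 to 2.07) was not called (limma-trend, adjusted p = 0.794), and it was -0.04 without control 1. A difference of up to about 2.07-fold in the receptor therefore remains within the interval. The ratio of Il1rn to Il1r1 was 0.391 to 0.978 in WD+alcohol libraries and 0.175 to 0.721 in controls, again overlapping.

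Of the receptor's 2 listed start sites, the window of the first (chr1:40224830-40225129, plus strand, GRCm38.p6) held 1 C/EBP match, TTGCTGAA, from 133 to 126 bases before the start, in capitals here. It is shown as the one window with a C/EBP match among the 10.
Il1r1 window 1: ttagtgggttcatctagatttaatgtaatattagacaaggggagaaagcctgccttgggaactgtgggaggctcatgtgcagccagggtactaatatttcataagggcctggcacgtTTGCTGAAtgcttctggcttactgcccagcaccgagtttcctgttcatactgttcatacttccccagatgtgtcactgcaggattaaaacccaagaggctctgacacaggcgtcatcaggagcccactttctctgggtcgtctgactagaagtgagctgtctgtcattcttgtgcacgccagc
The window of the other start site held no match to the 3 motifs.

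Other genes of IL-1 signalling were examined as a list. Il1b, the inducible ligand of Il1r1, stood at 135 to 171 CPM with Western diet plus alcohol and 137 to 154 CPM in controls, a log2 fold change of 0.04 (95% interval -0.13 to 0.21) that was not called and was -0.01 without WD+alcohol 2. Of 17 tested genes of IL-1 family ligands, receptors and adaptors, 1 rose and 0 fell, where 1.61% of all tested genes were higher, with a median log2 fold change of 0.04. The gene that rose was Il18bp, which encodes the secreted protein that binds and neutralises interleukin-18. It stood at 13.5, 6.88, 11.8, 14.4 and 15.8 CPM in WD+alcohol 1 to 5 and at 4.94, 2.31, 2.78 and 5.12 CPM in controls 1 to 4, without overlap, for a log2 fold change of 1.50 ± 0.25 (SE; limma-trend, adjusted p = 0.00521). Il18bp, like Il1rn, encodes an inhibitor of IL-1 family signalling. Other inhibitors in the list, Il1r2, Sigirr, Irak3 and Tollip, were tested and not called by limma-trend.

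Neither IL-6 receptor gene was called, and both overlapped between the groups. Il6st, encoding gp130, was the steadiest of the 8, at 171 to 193 CPM in WD+alcohol libraries and 176 to 192 CPM in controls, with coefficients of variation of 4.36% and 3.99%. Its log2 fold change was -0.03 (95% interval -0.17 to 0.11; limma-trend, adjusted p = 0.917), and 0.03 with all libraries rescaled to one total. The interval corresponds to a fold of 0.888 to 1.08. Il6ra, which encodes the ligand-binding chain, ranged from 26.4 CPM in WD+alcohol 5 to 45.0 CPM in WD+alcohol 4, and from 31.3 CPM in control 2 to 49.5 CPM in control 4. It had a log2 fold change of -0.17 (-0.51 to 0.18; adjusted p = 0.765). Per library, Il6st exceeded Il6ra by 3.87 to 6.46 times.

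Il6 itself was scarce, at 0.809 to 2.75 CPM with Western diet plus alcohol and 1.26 to 3.13 CPM in controls, where 3 reads correspond to 0.455 to 0.809 CPM. Its log2 fold change was -0.20 (95% interval -0.77 to 0.36), not called. Of 8 IL-6 family cytokines, 4 passed the filter and 0 were called by limma-trend (Il11, Osm, Cntf and Il27 were below the filter). The most abundant, Clcf1, a ligand that acts through gp130 and the LIF receptor, had means of 8.59 ± 1.73 (SD, n = 5) and 10.6 ± 0.918 CPM (SD, n = 4). Among 5 tested receptors of the family other than Il6ra and Il6st, 1 fell and 0 rose. This was Lifr, the leukaemia inhibitory factor receptor that pairs with gp130. Lifr stood at 51.5, 46.1, 60.6, 56.7 and 44.0 CPM in WD+alcohol 1 to 5 and at 98.2, 112, 90.4 and 98.9 CPM in controls 1 to 4, with no overlap. Its log2 fold change was -0.94 ± 0.10 (SE), a fold of 0.521 (limma-trend, adjusted p = 0.00031). The difference in response between Lifr and Il6st was not itself tested.

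Stat3 was the most abundant of the 8. It stood at 327, 324, 288, 333 and 288 CPM in WD+alcohol 1 to 5 and at 299, 316, 408 and 337 CPM in controls 1 to 4. Control 3 was the highest library and the other 8 lay close together across both groups. The log2 fold change was -0.12 (95% interval -0.32 to 0.09; limma-trend, adjusted p = 0.711). The activity of STAT3 depends on its phosphorylation, which an mRNA level does not measure. None of 10 JAK kinase and other STAT genes was called by limma-trend (median log2 fold change 0.07). The most abundant, Jak1, averaged 264 ± 6.03 against 242 ± 8.45 CPM without overlap between the groups but was not called (log2 fold change 0.13, adjusted p = 0.438).

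Socs3, a transcript that STAT3 induces, stood at 159, 164, 138, 133 and 119 CPM in WD+alcohol 1 to 5 and at 134, 123, 166 and 187 CPM in controls 1 to 4. The highest library was control 4 and the lowest was WD+alcohol 5, and the groups overlapped over most of their range. The log2 fold change was -0.09 (95% interval -0.36 to 0.18, a fold of 0.779 to 1.14; limma-trend, adjusted p = 0.856), and 0.02 without control 4. The ratio of Socs3 to Stat3 was 0.398 to 0.507 with Western diet plus alcohol and 0.390 to 0.554 in controls. Of 15 other inhibitors of JAK-STAT signalling 0 were called by limma-trend (median log2 fold change -0.02), and the most abundant, the phosphatase gene Ptpn1, averaged 156 ± 11.7 against 149 ± 10.4 CPM.

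The window of Socs3 is shown as that of a known STAT3 target among the 8. It lies at chr11:117969317-117969616 (minus strand, GRCm38.p6, written 5′ to 3′ along the gene), and its 1 STAT match, TTCTTAGAA, is in capitals from 154 to 146 bases before the start that RefSeq gives.
Socs3 window 1: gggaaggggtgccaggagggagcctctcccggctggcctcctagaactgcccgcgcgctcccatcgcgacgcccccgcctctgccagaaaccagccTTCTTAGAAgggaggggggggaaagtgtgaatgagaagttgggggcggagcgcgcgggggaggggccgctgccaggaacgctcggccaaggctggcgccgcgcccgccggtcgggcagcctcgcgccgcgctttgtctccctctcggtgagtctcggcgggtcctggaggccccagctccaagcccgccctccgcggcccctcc
Windows of Il6ra, Il6st, Stat3 and Cebpb held no match to any of the 3 motifs.

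Cebpb and Cebpd, whose products bind the same DNA motif, also overlapped between the groups. Cebpb stood at 216, 264, 200, 249 and 221 CPM in WD+alcohol 1 to 5 and at 208, 175, 249 and 236 CPM in controls 1 to 4. WD+alcohol 2 was the highest and control 2 the lowest. The log2 fold change was 0.09 (95% interval -0.15 to 0.32; limma-trend, adjusted p = 0.823), and -0.01 without control 2. Cebpd was lower and more variable, at 38.5, 50.9, 27.6, 33.0 and 31.4 CPM in WD+alcohol libraries 1 to 5 and at 27.2, 21.6, 46.7 and 39.8 CPM in controls 1 to 4. WD+alcohol 2 was again the highest and control 2 again the lowest. The log2 fold change of Cebpd was 0.13 (95% interval -0.33 to 0.58; limma-trend, adjusted p = 0.878), and -0.06 without control 2. Among 7 other C/EBP and interacting bZIP genes 0 were called by limma-trend (median log2 fold change 0.06), and the most abundant, the stress response factor gene Atf4, averaged 284 ± 16.6 against 313 ± 9.98 CPM.

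In order of their median level over the 9 libraries the 8 genes were Stat3 (324 CPM), Cebpb (221), Il6st (185), Socs3 (138), Il1r1 (38.3), Il6ra (35.3), Cebpd (33.0) and Il1rn (20.8). Ranges of neighbours overlapped except between Stat3 and Cebpb and between Socs3 and Il1r1. Libraries of 3′ ends read each transcript at its end only, so these levels do not scale with transcript length.

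Genes downstream of the pathway were taken from 3 lists. Of 20 tested immediate targets of STAT3 outside plasma proteins, 1 rose and 0 fell, with a median log2 fold change of 0.01. The one that rose was Mcl1, an inhibitor of apoptosis, with means of 148 ± 5.66 (SD, n = 5) and 114 ± 13.9 CPM (SD, n = 4), with no overlap (limma-trend, adjusted p = 0.031). The call of Mcl1 was lost without any one library other than control 3 (adjusted p 0.0549 to 0.0899). With the replicate number as a block it was lost too (limma-trend, adjusted p = 0.220), which makes 9 of 20 alternative analyses. These STAT3 targets and the lists above of cytokines, receptors, kinases, inhibitors, bZIP genes and IL-1 genes make 7 lists without plasma proteins. Over their 78 tested genes, 2 were higher (Il18bp and Mcl1) and 1 was lower (Lifr), 3.85% beside 2.29% of all genes. Of 27 tested plasma proteins induced by IL-6 or IL-1, 9 were higher and 1, Hamp, was lower, with a median log2 fold change of 0.71. The rest were not called, and over all tested genes 1.61% were higher and 0.678% lower. Summed over the 28 genes listed, the groups overlapped, at 20927 to 36024 CPM with Western diet plus alcohol and 12279 to 30406 CPM in controls. Orm3, an orosomucoid gene, averaged 77.9 ± 28.5 against 7.60 ± 4.87 CPM and Saa3, a serum amyloid A gene, 51.1 ± 27.8 against 9.55 ± 2.16 CPM. Each family includes some near-identical copies that could share reads, which also bears on Saa1 below. Of 10 plasma proteins lowered in the acute phase 2 fell, Alb (log2 fold change -0.83) and the apolipoprotein gene Apoa1 (-0.56), but the call of Alb was lost in 13 and that of Apoa1 in 10 of 20 alternative analyses (adjusted p up to 0.588 and 0.460). Alb and Apoa1 are also the only 2 called of the 10 hepatocyte markers, whose sum was lower in every WD+alcohol library than in any control.

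**Figure D3:**
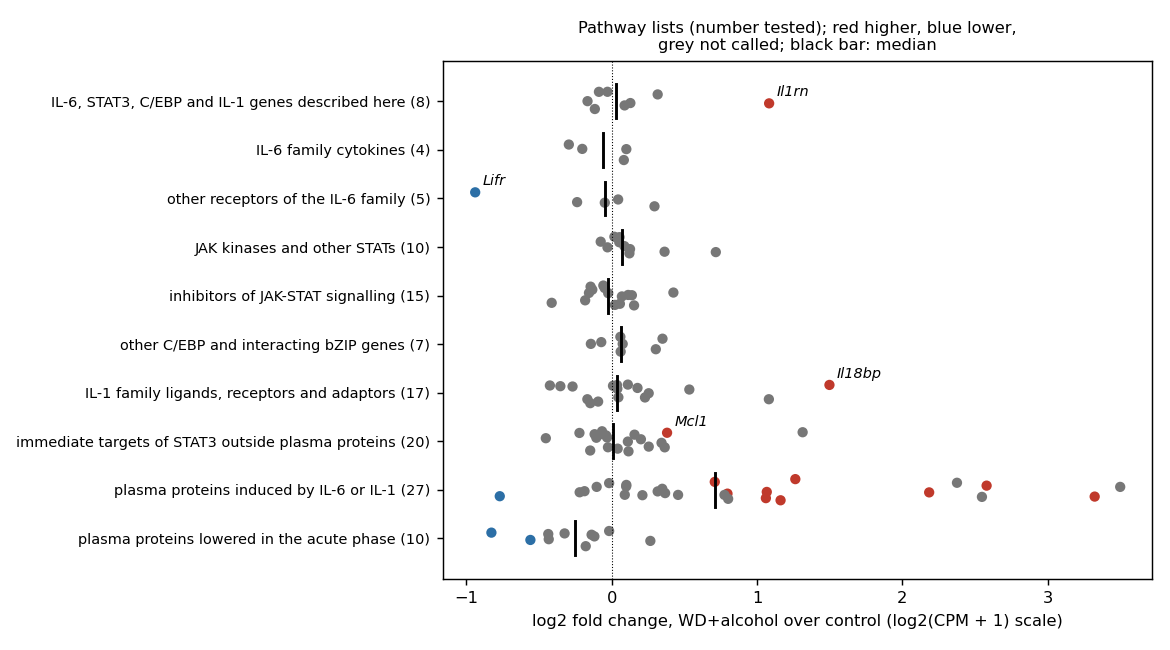
Log2 fold change of WD+alcohol over control (x axis, log2(CPM + 1) scale) of each tested gene of the 8 described here and of 9 lists of related genes; red is higher and blue lower at an adjusted p under 0.05, grey is not called, and black bars are medians. Medians lie near 0 for every list but the last 2, the plasma proteins, at 0.71 and -0.25.

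Variation within the groups was shared by several of the 8 genes and by Saa1, a serum amyloid A gene that IL-6 and IL-1 induce in hepatocytes. Saa1 stood at 21.6, 27.3, 1027 and 916 CPM in controls 1 to 4 and at 505, 2104, 379, 1845 and 476 CPM in WD+alcohol 1 to 5. Controls 3 and 4 thus lay above 3 of the 5 WD+alcohol libraries, and Saa1 was not called (log2 fold change 2.38, 95% interval 0.08 to 4.67; limma-trend, adjusted p = 0.387). Its log2 fold change was 1.44 without control 1 and 1.55 without control 2, and 1.08 with DESeq2 and 1.09 with edgeR, and it was not called in any of these. Controls 3 and 4 also had the highest control levels of Il6ra, Stat3, Socs3, Cebpb, Cebpd and Il1r1. Among WD+alcohol libraries, WD+alcohol 2 had the highest level of Saa1 and also of Socs3, Cebpb, Cebpd and Il1r1. Il6ra and Stat3 were highest in WD+alcohol 4, where Saa1 and Cebpb were second highest. There, however, Socs3 (133 CPM), Cebpd (33.0 CPM) and Il1r1 (38.3 CPM) stood below WD+alcohol 1 (159, 38.5 and 46.4 CPM), where Saa1 was 505 CPM. Il6st departed from this order, as it was highest in control 2 (191.8 CPM, beside 191.6 CPM in control 4) and in WD+alcohol 1 (192.7 CPM). Il1rn followed the order of Saa1 in part. Its highest control was control 3 (13.2 CPM), but control 4 (9.47 CPM) was close to control 2 (9.03 CPM), and WD+alcohol 2 (24.6 CPM) came after WD+alcohol 5 (26.2 CPM). These are 9 libraries seen after their values were known, so the shared order is a description. The labels give no batch, time of day or state of health for single mice.

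**Figure D4:**
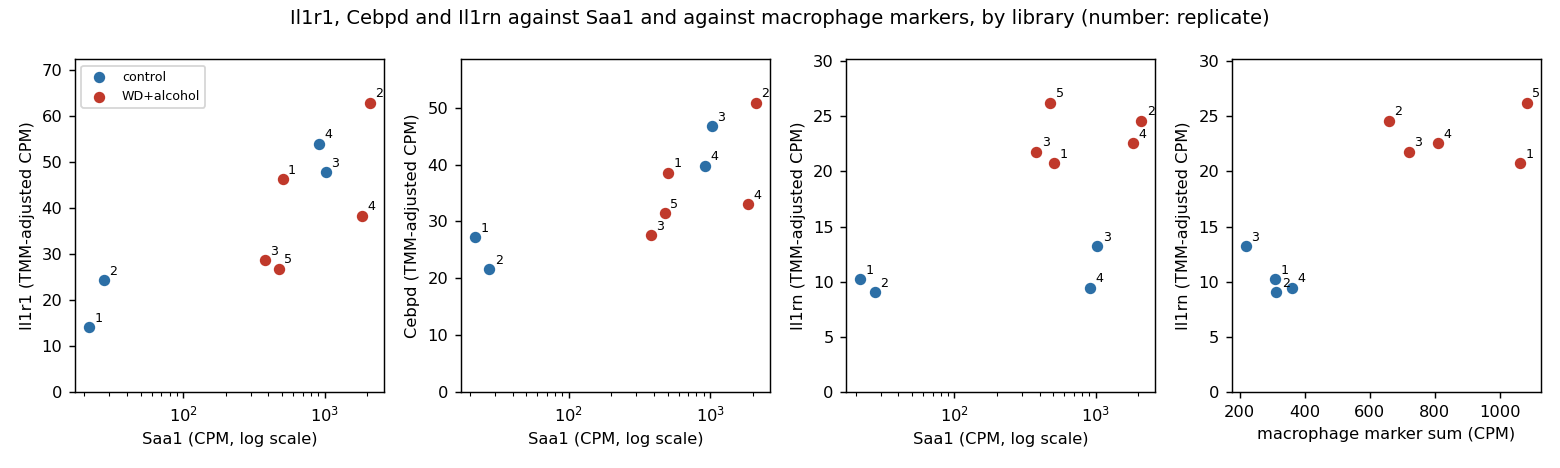
Levels of Il1r1, Cebpd and Il1rn (y axes, CPM, from 0) against Saa1 (CPM, log axis, first 3 panels), and of Il1rn against the sum of 13 macrophage markers (CPM, last panel); each point is 1 library with its replicate number, blue for control and red for WD+alcohol. Il1r1 and Cebpd are low in controls 1 and 2, where Saa1 is at 21.6 and 27.3 CPM. Il1rn is higher in every WD+alcohol library than in any control. Its highest control, control 3, has the highest Saa1 but the lowest marker sum of the controls.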

How the data were processed

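The livers of 9 male mice were sequenced after Trizol extraction and Collibri 3′ mRNA library preparation, per the labels' protocols. Samples were grouped by title, and library names tied each of the 9 columns to 1 sample; each library was taken as 1 mouse, since the design text counts 5 and 4 mice. The submitters' processing notes name Trim Galore 0.6.0 and cutadapt 1.18 for trimming; per those notes reads were aligned with STAR to GRCm39, counted with HTSeq 0.11.0 and scaled with edgeR 3.28.1 in R 3.6.3. Strand setting and treatment of multimapping reads are not given in the sources used here. The deposited values are a signal, TMM-adjusted CPM by the authors. All positive values (100%, relative tolerance 1e-06) were whole multiples of their column's smallest value, so whole read counts were recovered from the deposited values.

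The 14759 genes averaging 1 CPM or more were tested two-sided on log2(CPM + 1) by limma-trend, using limma 3.58.1 in R 4.3.3, with Benjamini-Hochberg adjustment at 0.05. Adding 1 shrinks the fold changes of scarce genes. Unadjusted, 1798 genes had a p under 0.05. The self-test was run on simulated counts. The 8 genes and all lists were chosen with earlier results of these data known. Named genes were the 8, from each list the 2 called genes of lowest p, or with none called its most abundant gene, and the 2 genes most like each of the 8 by Pearson r among genes averaging 5 CPM or more, clone-like names left out. Il6, Il1b and Saa1 were named after their values were seen. Alternatives included edgeR 4.0.16 and DESeq2 1.42.0 on the recovered counts. A level of 0 reads allows up to 0.455 to 0.809 CPM (3 reads), which covers counting error only. Figures used Python 3.11.15 and matplotlib 3.10.9.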

Additional observations from a re-analysis of the deposited data

How the results depend on the processing

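The number of the 8 genes called was 1 in all 20 alternatives, and Il1rn was called in each, with a log2 fold change of 0.87 to 1.19 and an adjusted p of 1.63e-09 to 0.0192. Lifr and Il18bp were also called in all 20. None of the other 7 genes was called in any alternative. Their signs were less firm: Il6st turned to 0.0256 with all libraries rescaled to one total, Socs3 to 0.0161 without control 4, Cebpb to -0.00934 and Cebpd to -0.0587 without control 2, and Il1r1 to -0.0410 without control 1. With 1 library left out, Il6ra ran from -0.268 to -0.0537, Il6st from -0.0560 to -0.00580, Stat3 from -0.175 to -0.0255, Socs3 from -0.183 to 0.0161, Cebpb from -0.00934 to 0.159, Cebpd from -0.0587 to 0.300 and Il1r1 from -0.0410 to 0.578. The number called among all genes was 338, against 545 with DESeq2 and 112 with the replicate number as a block, and from 195 to 386 with 1 library left out (195 without WD+alcohol 1, 203 without WD+alcohol 5). With all libraries rescaled to one total, 364 genes were higher and 105 lower, against 238 and 100. No scaling moved the median over all genes by more than 0.05. By the labels, same-numbered mice share only a number. Correlations of their deviations were -0.31 to -0.01, and none of WD+alcohol 1 to 4 correlated best with its own number. Whether they shared a cage, litter or day was not tested. Under the block WD+alcohol 5 has no partner and adds nothing, and Il1rn stayed called there at 1.04 (limma-trend, adjusted p = 0.0192).

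Genes like the 8 that were not called also changed sign. With all libraries rescaled to one total Taf8 was 0.00492, Tmem273 0.0222, Emsy 0.0285 and Eya1 0.0423; with the replicate block Taf8 was 0.0644, Tmem273 0.0162 and Eya1 0.0174; and Serpina3n was -0.135 with edgeR and with DESeq2. With 1 library left out, Taf8 ran from -0.161 to 0.0644, Tmem273 from -0.0848 to 0.0298, Emsy from -0.101 to 0.0392, Ube2g2 from -0.0213 to 0.0696, Acbd3 from -0.00649 to 0.0965, Zfp36 from -0.125 to 0.155, Eya1 from -0.168 to 0.149, Serpina3n from -0.371 to 0.421 and Il1b from -0.00802 to 0.0779. The cause of these turns was not tested. Depth limits Il6, at about 3 to 19 reads a library, more than the 8 genes, at 43 to 2349 reads.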
